A study of Mus musculus with 2 samples.

Results

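Synaptic vesicle and SNARE machinery is the set of proteins that fills, docks, fuses and retrieves the vesicles with which neurons release transmitter, together with the SNARE proteins that drive membrane fusion elsewhere in the cell. Its genes were taken by symbol: protein-coding genes named as synaptotagmins, syntaxins and syntaxin binding proteins, VAMPs, SNAPs, synapsins, synaptophysin, SV2 and Rab3 proteins, complexins, Unc13 and Rims proteins, bassoon, piccolo and Nsf. The tables held 74 such genes of 43346 in all, 21474 of them protein-coding. The naming rule used no measured value, but it was set with earlier results of these data known. RNA came from the midbrain of B6NCrl mouse embryos of mixed sex, taken at embryonic day 11.5. There was 1 group with no treatment, and its 2 biological replicates were pools of 109 and 88 embryos. Libraries were made from 10 ng of RNA above 200 nt after adding ERCC spike-ins, and a Smart-seq protocol, which amplifies cDNA, is cited for it. The libraries held 41760197 and 49256468 expected counts (estimated reads per gene, which need not be whole).

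Membrane fusion needs a SNARE on the vesicle (a VAMP) to coil with SNAREs on the target membrane (a syntaxin and a SNAP protein). At nerve terminals that complex is built from Vamp2, Snap25 and a syntaxin such as Stx1a, and a synaptotagmin makes it respond to calcium, while related SNAREs serve the Golgi, endosomes and constitutive secretion in every cell. At mid-gestation the midbrain is made largely of dividing progenitors and newly formed neurons, and synapses form mostly later.

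Levels are given in TPM (a relative abundance scaled for transcript length and for the library), as the value in replicate 1 and then in replicate 2, and as a mean ± SD (n = 2) where useful. A gene was called detected at 1 TPM or more in both libraries. By that rule 64 of the 74 genes (86.5%) were detected, against 58.2% of all protein-coding genes. At 10 TPM or more in both libraries stood 31 genes, and at 50 TPM or more 8. For these higher limits no share of all protein-coding genes is given, so they do not rank the set against other genes. The median gene of the set had a mean of 7.18 TPM, against 3.46 TPM over all protein-coding genes. Among detected genes alone the order was the other way, with 9.96 TPM for the set and 18.5 TPM for protein-coding genes. The set was thus detected more often than protein-coding genes at large, while its detected genes had the lower median.

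**Figure D1:**
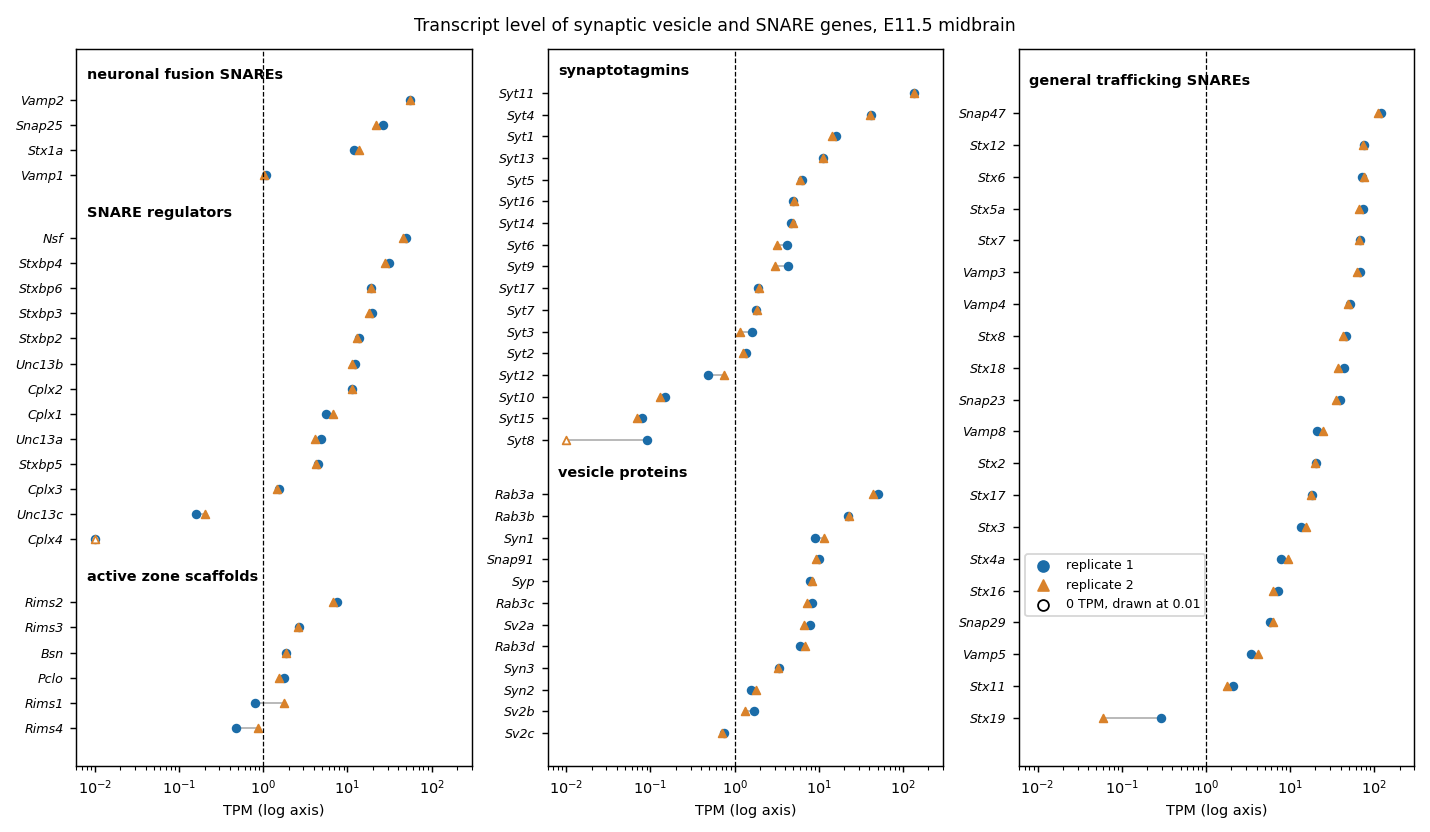
TPM of 72 genes of the set in replicate 1 (circles) and replicate 2 (triangles) on a log axis, grouped by role; the dashed line marks 1 TPM and open symbols are genes at 0 TPM. The general trafficking SNAREs lie mostly to the right, active zone scaffolds lie under 8 TPM, and Rims1, Rims4, Stx19 and Syt8 have visibly separated points.

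The tissue held cells of several types. All 10 neuron markers were detected, with summed levels of 1918 and 1901 TPM, as were all 8 progenitor markers with 2594 and 2659 TPM. All 6 midbrain genes looked at were detected, from Otx2 with 169 and 171 TPM to Lmx1b with 1.55 and 1.66 TPM. All 7 erythroid markers were detected at 15190 and 15265 TPM in sum, all 6 mesenchyme markers at 712 and 681 TPM, all 6 endothelial markers at 100.2 and 100.9 TPM, all 6 microglia and macrophage markers at 66.2 and 69.9 TPM and all 5 platelet markers at 85.2 and 94.1 TPM. Of 6 mature glial markers 2 were detected, and Gfap was at 0.01 and 0.09 TPM. In bulk tissue fewer cells of a type and less RNA per cell cannot be told apart, and several SNAREs described here are made by non-neural cells too. The part of the non-neural cells in any level was not tested.

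The 5 SNAREs of the neuronal fusion complex were all detected, over a range from 1.06 to 55.7 TPM. Vamp2 (synaptobrevin 2), the vesicle SNARE of central synapses, led them with 55.9 and 55.5 TPM. Its close relative Vamp1, the form that prevails in the adult spinal cord and brainstem, had 1.08 and 1.03 TPM. Vamp2 was 48.3-fold higher on the scale of TPM + 0.1 used for all such folds, and 27.6-fold on TPM + 1, the widest gap among the related pairs compared here on either scale. Snap25, which gives a pair of helices to the complex, had 26.6 TPM in replicate 1 and 21.7 TPM in replicate 2. The target-membrane syntaxin Stx1a had 12.02 and 13.6 TPM. The 5 genes made up 6.94% and 7.05% of the summed TPM of the set.

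Snap25 RNA can carry one of 2 alternative forms of exon 5, and the exchange of the upstream form (5a) for the downstream form (5b) is a known feature of brain maturation. Both exons have 118 bases and lie on the forward strand of chromosome 2, with 196 bases between them. They differ at 31 positions, which are in capitals here, so 73.7% of the positions are identical. They are shown because the deposited transcript table separates transcripts that carry one or the other.
Snap25-202, upstream exon, mm10 chr2:136769743-136769860: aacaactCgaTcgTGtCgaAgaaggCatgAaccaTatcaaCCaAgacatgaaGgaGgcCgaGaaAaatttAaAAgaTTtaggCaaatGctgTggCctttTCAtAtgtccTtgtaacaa
Snap25-201, downstream exon, mm10 chr2:136770057-136770174: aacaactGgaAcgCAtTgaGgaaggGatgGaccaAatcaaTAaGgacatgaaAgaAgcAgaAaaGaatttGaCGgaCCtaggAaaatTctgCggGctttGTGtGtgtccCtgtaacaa

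Snap25-201, with the downstream exon, was assigned 82.7% of the gene's TPM in replicate 1 and 75.7% in replicate 2. Snap25-202, with the upstream exon, was assigned 15.8% and 21.7%. The remaining transcript, Snap25-203, is annotated as a retained intron and held 1.54% and 2.54%. The transcript with the downstream exon led in both libraries, by expected counts of 1185 and 1060 against 103 and 138. These shares do not measure exon choice alone. The last exon of Snap25-201 has 1354 bases and that of Snap25-202 has 277, with 1077 bases between their ends, so reads in that stretch weigh on the assignment as well as reads in exon 5.

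Outside the neuronal complex, the 20 general trafficking SNAREs held 52.1% and 51.9% of the set's summed TPM, with a median of 30.0 TPM. Of them 19 were detected and 14 were at 10 TPM or more in both libraries. Snap47, a broadly made relative of Snap25, had 121 and 111 TPM. Among the endosomal syntaxins, Stx12 had 76.1 and 74.2 TPM and Stx7 had 67.5 and 66.1 TPM. Stx6 and Stx5a, syntaxins of the Golgi and its traffic, had 71.8 and 74.6 TPM and 72.8 and 66.1 TPM. Vamp3, the VAMP of recycling endosomes, had 67.1 and 61.8 TPM, and Vamp4, a VAMP of the trans-Golgi network, had 52.0 and 49.4 TPM. Except for Vamp4, each of these genes lay above Vamp2 in both libraries.

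Other members of the group were lower. Stx8, an endosomal syntaxin, had 46.1 and 42.3 TPM, and Stx18, which acts at the endoplasmic reticulum, had 43.4 and 37.5 TPM. Snap23, the broadly made form of Snap25, had 39.7 and 34.8 TPM, and was 1.55-fold higher than Snap25. Snap47 was 4.81-fold higher than Snap25, so the neuronal SNAP was below both of these relatives in each library. Vamp8, a VAMP of late endosomes, had 21.01 and 24.6 TPM. Stx17, the syntaxin of autophagosomes, had 18.3 and 17.7 TPM. The plasma membrane syntaxins Stx2 and Stx3 had 20.3 and 19.6 TPM and 13.4 and 15.3 TPM. Stx4a, also of the plasma membrane, had 7.76 and 9.45 TPM, Stx16 of the trans-Golgi network 7.11 and 6.26 TPM, and Snap29 5.75 and 6.19 TPM. Vamp5 and Stx11, known from muscle and from immune cells, were the lowest detected genes of the group, with 3.45 and 4.14 TPM and with 2.10 and 1.76 TPM. Stx19 was under the detection limit, with 0.29 and 0.06 TPM.

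Vamp2 and Vamp3 stood close together. Vamp3 was 1.16-fold higher, and the deposited intervals did not overlap in either library, from 63.7 to 68.1 TPM for Vamp3 against 52.2 to 57.7 TPM for Vamp2 in replicate 1. In replicate 2 they ran from 58.9 to 62.8 TPM and from 52.4 to 57.3 TPM. The interval bounds are the authors', no source used here gives their level, and they hold no spread between embryos. Amplified reads are not independent molecules, so all intervals here cover counting and assignment error only.

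Regulators of the SNARE cycle were represented by 14 genes, 12 of them detected, with a median of 11.6 TPM. Nsf, the ATPase that takes used SNARE complexes apart, had 49.99 and 45.6 TPM. Stxbp2 and Stxbp3, which serve secretion in non-neuronal cells, had 13.8 and 12.8 TPM and 19.6 and 18.2 TPM. Stxbp4 had 31.4 and 27.7 TPM, Stxbp6 (amisyn) 19.0 and 19.1 TPM and Stxbp5 (tomosyn) 4.49 and 4.18 TPM.

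The complexins clamp and promote fusion at the assembled SNARE complex. Cplx2 had 11.3 TPM in both libraries, 1.83-fold above Cplx1 with 5.63 and 6.68 TPM. Cplx3, known from ribbon synapses of the retina, had 1.52 and 1.47 TPM. Cplx4, the other retinal form, had 0 counts in both libraries, where 3 counts would be 0.0772 and 0.0653 CPM (counts scaled to the library's gene total). Of the Unc13 proteins, which prime vesicles, Unc13b led with 12.3 and 11.3 TPM and was 2.60-fold above Unc13a with 4.91 and 4.09 TPM. This fold is on the TPM of whole genes. Transcripts annotated protein-coding held 41.0% and 43.7% of the TPM of Unc13a, and 81.0% and 78.9% of that of Unc13b. Unc13a is the main form of adult excitatory synapses. Unc13c, the cerebellar form, had 0.16 and 0.20 TPM. It was below Unc13a in both libraries, by a factor that rests on the constant added, 16.4-fold on TPM + 0.1 and 4.65-fold on TPM + 1.

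The 6 active zone scaffolds, which place vesicles and calcium channels at the release site, were the lowest group. Their median was 1.75 TPM, and they held 1.03% and 1.10% of the set's TPM. Rims2 led with 7.50 and 6.74 TPM, followed by Rims3 with 2.64 and 2.60 TPM. The very large scaffolds bassoon and piccolo were near each other, Bsn at 1.85 and 1.87 TPM and Pclo at 1.74 and 1.53 TPM. Bsn and Pclo were the single pair not called different, at 1.13-fold, since their intervals overlapped in replicate 1 and not in replicate 2. Rims1, a central organiser of adult active zones, had 0.80 and 1.74 TPM, and Rims4 0.48 and 0.87 TPM. Neither reached 1 TPM in replicate 1, so neither counts as detected. Rims2 was 5.60-fold above Rims1 over both libraries, by 8.44-fold in replicate 1 and 3.72-fold in replicate 2, and 3.65-fold over both on TPM + 1.

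Synaptotagmins carry C2 domains that in some members bind calcium. Of 17 genes 13 were detected, and their mean levels ran from 0.045 to 136 TPM. Syt11, a member that does not bind calcium and is linked to membrane retrieval, was the highest gene of the whole set with 135 and 136 TPM. It held 57.3% and 58.7% of the summed TPM of all synaptotagmins. Syt4, another member with an altered calcium site, followed with 41.5 and 40.3 TPM. Syt1, the fast calcium sensor of forebrain synapses, had 16.1 and 14.4 TPM. Syt11 was 8.84-fold and Syt4 2.67-fold above Syt1. The other fast sensors were lower still, Syt2 with 1.38 and 1.26 TPM and Syt9 with 4.26 and 3.05 TPM. Syt7, the slow sensor of asynchronous release, had 1.79 and 1.84 TPM, 8.02-fold below Syt1.

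Among the remaining synaptotagmins Syt13 had 11.2 and 11.3 TPM, Syt5 6.37 and 6.01 TPM, Syt16 4.90 and 5.06 TPM and Syt14 4.73 and 4.91 TPM. Syt6 had 4.23 and 3.23 TPM, Syt17 1.89 and 1.97 TPM and Syt3 1.60 and 1.16 TPM. The 4 that were not detected were Syt12 with 0.48 and 0.74 TPM, Syt10 with 0.15 and 0.13, Syt15 with 0.08 and 0.07, and Syt8, which had 1 count in replicate 1 and 0 in replicate 2.

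Proteins of the vesicle itself came next, with 12 genes, 11 of them detected, and a median of 7.54 TPM. Rab3a, the small GTPase of synaptic vesicles, was the highest with 50.4 and 43.6 TPM. Rab3b had 22.2 and 22.6 TPM, Rab3c 8.35 and 7.34 TPM and Rab3d 5.92 and 6.80 TPM. Rab3a was 2.09-fold above Rab3b, 5.92-fold above Rab3c and 7.29-fold above Rab3d. Syn1, a synapsin that tethers vesicles in the reserve pool, had 9.07 and 11.4 TPM. It was 5.75-fold above Syn2 (1.57 and 1.81 TPM) and 2.98-fold above Syn3 (3.39 and 3.30 TPM). Synaptophysin (Syp), the abundant membrane protein of the vesicle, had 7.83 and 8.35 TPM. Sv2a, the vesicle protein that binds levetiracetam, had 7.85 and 6.61 TPM, 4.53-fold above Sv2b and 8.86-fold above Sv2c (4.76-fold on TPM + 1). Sv2b had 1.72 and 1.33 TPM, and Sv2c 0.75 and 0.70 TPM. Snap91 (AP180), a neuronal clathrin adaptor that is not a SNARE despite its symbol, had 9.98 and 9.39 TPM. Its broadly made relative Picalm, which is not in the set, had 16.1 and 15.5 TPM, 1.62-fold more.

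Across the set, 29 pairs of related genes were compared within each library, and 28 (96.6%) had deposited TPM intervals apart in the same direction in both. Among all pairs of detected protein-coding genes 90.3% were so separated, so a separated pair is the usual case and its size is the result. With 2 libraries an exact sign-flip test cannot give a p under 0.5, and none is given. Where a gap of at least 1.5-fold in both libraries was also asked, 4 pairs no longer passed, among them Snap25 with Snap23, Vamp2 with Vamp3 and Stx7 with Stx12.

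**Figure D2:**
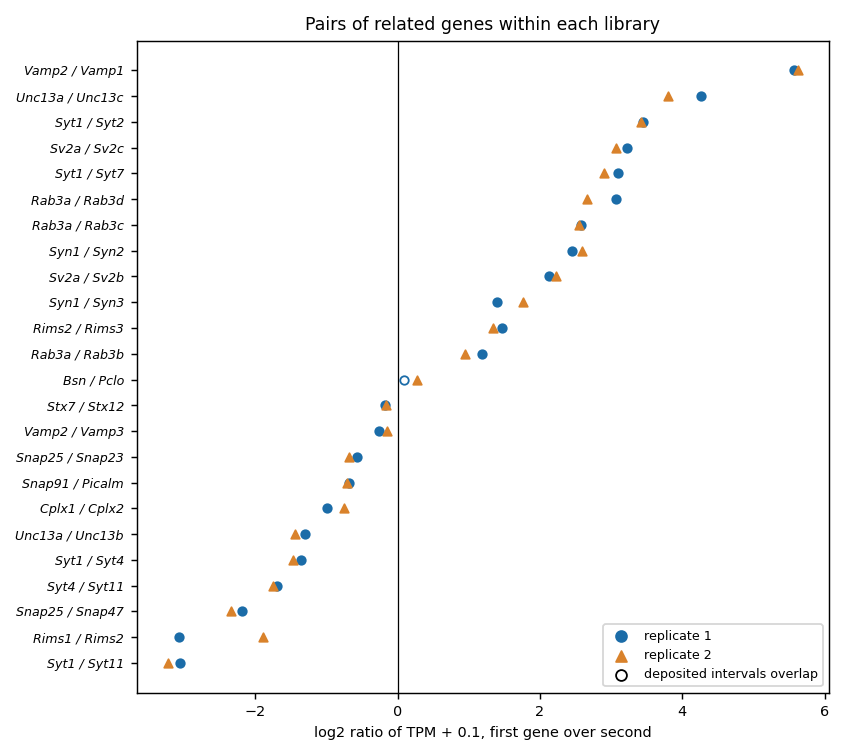
Ratio of TPM + 0.1 of the first gene to the second (log2) for 24 of the pairs of related genes, in replicate 1 (circles) and replicate 2 (triangles); the open symbol marks overlapping deposited intervals. The pairs run from Vamp2 over Vamp1, 48.3-fold, to Syt1 under Syt11, 8.84-fold, and Bsn over Pclo in replicate 1 is the open symbol.

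A single paralog led most families. Of 11 families with at least 3 measured genes, 8 had one gene with at least 50% of the family's TPM in both libraries. These leaders were Sv2a with 76.3% ± 0.310 (SD, n = 2), Unc13b with 71.7% ± 1.21, Syn1 with 66.9% ± 3.13, Snap47 with 63.3% ± 0.785, Rims2 with 61.0% ± 6.56, Cplx2 with 59.7% ± 2.15, Syt11 with 58.0% ± 1.00 and Rab3a with 56.1% ± 2.69. VAMPs, syntaxins and syntaxin binding proteins had no such leader. Vamp3 held 32.5% ± 1.43 and Vamp2 28.1% ± 0.277 of the VAMPs, and Stx12 held 16.4% ± 0.0339 of the 15 syntaxins. In 10 families the same gene led in both libraries, and among the syntaxins Stx12 led in replicate 1 and Stx6 in replicate 2. By expected counts, which do not allow for gene length, Rab3c with 37.7% took the place of Rab3a with 34.2%.

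**Figure D3:**
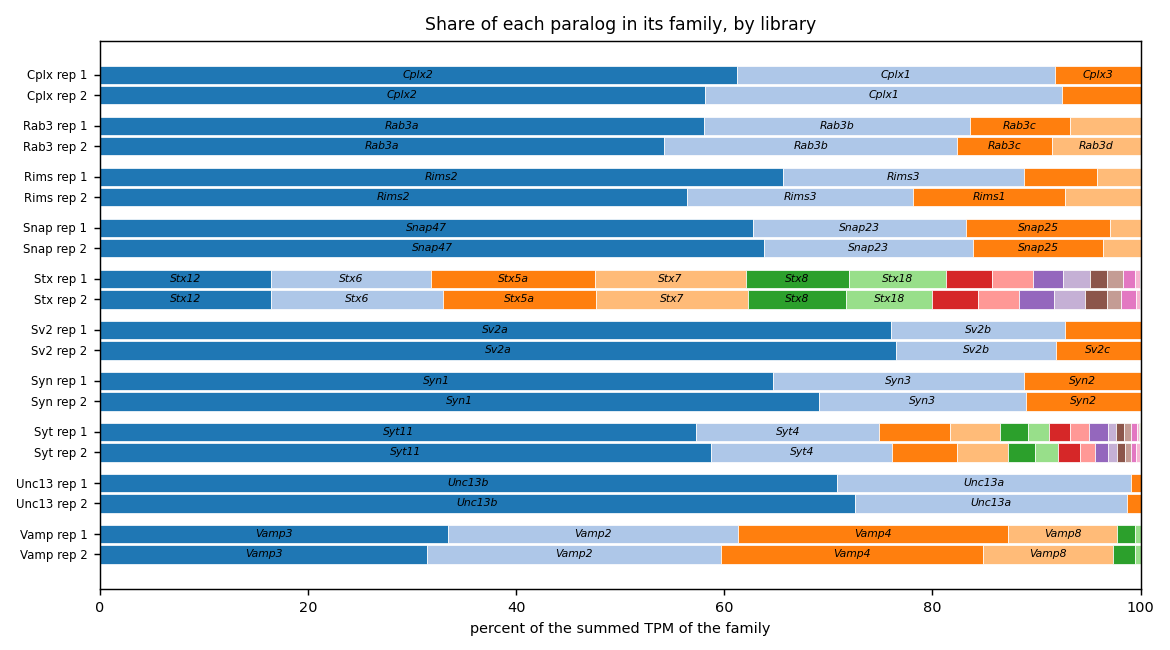
Percent of each family's summed TPM held by each of its genes, as stacked bars to scale, 1 bar for each library. One colour spans more than 50% of the bar in 8 of the 10 families drawn, while VAMPs (6 genes measured) and syntaxins (15) are split.

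Most of this RNA was assigned to coding transcripts. The transcript tables listed 353 transcripts for the set. In 61 of the 64 detected genes the leading transcript was annotated protein-coding in both libraries. The median share of a gene's TPM on coding transcripts was 98.5% in replicate 1 and 99.5% in replicate 2. For genes whose listed transcripts are all coding, the annotation fixed both outcomes. No such values over all protein-coding genes are given. Of 54 detected genes with more than 1 transcript, 47 had the same leading transcript in both libraries. The 7 that did not were Bsn, Stx11, Stx16, Stx17, Syt3, Syt7 and Vamp1.

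In 7 genes coding transcripts held under 60% in both libraries, namely Syt16, Stx8, Unc13a, Stx1a, Syt6, Stx5a and Stx4a. For Stx1a, the neuronal syntaxin, Stx1a-201 (coding) held 55.2% and 50.7%, and Stx1a-204, annotated for nonsense-mediated decay, held 31.6% and 33.2%. For Stx8, the processed transcript Stx8-204 of 552 bases held 72.1% and 73.1% of the TPM but 403 of 1142 and 449 of 1233 expected counts. TPM is per length, so a short transcript takes a larger share of TPM than of counts. The next genes were singled out after their values were seen. Unc13a-206, a retained intron of 944 bases, held 49.6% and 44.5% of the TPM of Unc13a and 55.1 and 49.2 of its 512 and 626 counts. Syt16 had a single transcript in the tables, which the later annotation labels as a target of nonsense-mediated decay. For Syt6, Syt6-206 of the same label held 41.0% and 39.7%. Syn1 shifted between its 2 coding transcripts, with Syn1-201 at 80.0% in replicate 1 and 58.9% in replicate 2.

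**Figure D4:**
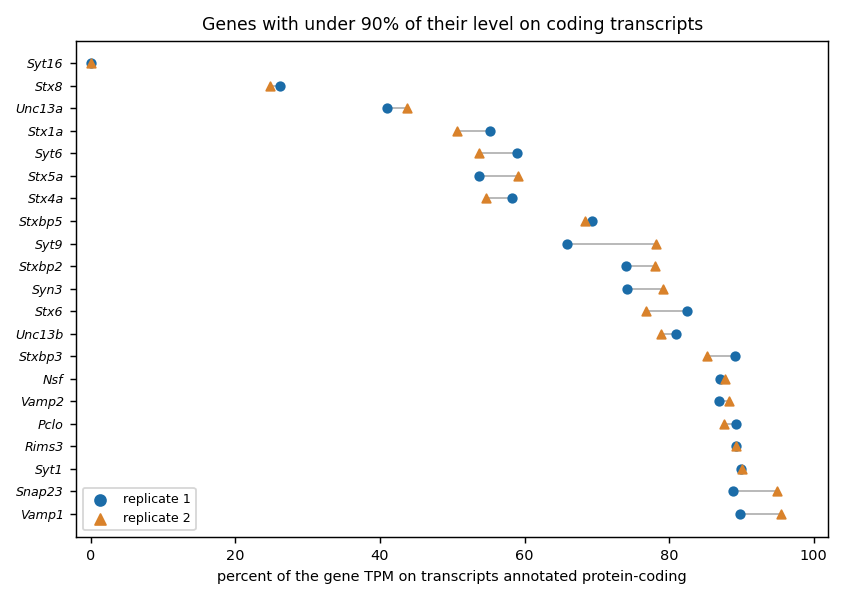
Percent of a gene's TPM on transcripts annotated protein-coding, for the 21 detected genes under 90% in at least 1 library, in replicate 1 (circles) and replicate 2 (triangles). Syt16 is at 0, Stx8 near 25%, and Unc13a, Stx1a, Syt6, Stx5a and Stx4a lie between 41.0% and 59.1%.

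Replicate 2 was set against replicate 1 by an exact binomial test per gene on counts, two-sided, with Benjamini-Hochberg adjustment over all genes tested. Of 70 genes of the set with enough counts, 1 passed an adjusted p of 0.05 and a 2-fold difference, against 2.94% of all genes tested. It was Stx19, a syntaxin of epithelia, with 21 counts in the first library and 5 in the second (log2 ratio −2.12, adjusted p = 0.0025 by the exact binomial test). With edgeR's exact test and an assumed coefficient of variation of 0.1 between pools it had an adjusted p of 0.0894. Its level was under 0.5 TPM in both libraries.

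Without a minimum on the fold, 25 of the 70 genes (35.7%) passed, against 35.5% of all genes. Of these, 8 were higher in replicate 2, 11.4% of the 70 against 18.3% of all genes, and 17 were lower, 24.3% against 17.2%. This test takes counting noise alone as its error, and the common coefficient of variation between the libraries was 7.80% over 14052 genes. Whether the spread comes from the embryos pooled or from library preparation was not tested. Deposited TPM intervals of the libraries did not overlap for 14 of the 64 detected genes (21.9%), against 22.4% of all genes at 1 TPM. By either measure the set differed between the pools about as often as genes at large.

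The widest differences among these genes were at low levels. Rims4 had 62 and 136 counts (log2 ratio 0.87), and Rims1 had 94 and 188 counts (0.74). For Rims1 the TPM differed by more than the counts, 0.80 against 1.74, since its effective length was 4386 in replicate 1 and 3376 in replicate 2. Its leading transcript was Rims1-201 of 5954 bases in replicate 1 and Rims1-207 of 2294 bases in replicate 2. The assignment rests on few counts and is uncertain. Rims1-201 held 59.1% in replicate 1 by the deposited percent, but 27.7% by posterior mean, where the same transcripts led. Syt9 was lower in replicate 2 (373 and 319 counts, log2 ratio −0.47), as was Syt6 (466 and 412 counts, −0.43). Among the neuronal genes Snap25 had 1340 counts and, in the deeper library, 1282 (log2 ratio −0.31). Syn1 went the other way with 758 and 1144 counts (0.35). Vamp2 (0.01) and Cplx2 (0.02) were close to 0. These named genes do not stand for the set. By the binomial test without a fold minimum, 4 vesicle proteins were lower in replicate 2 and 1 was higher. Of the synaptotagmins 3 were lower and 0 higher, and of the active zone scaffolds 1 was lower and 2 were higher. Whether neuronal genes shifted together was not tested. All log2 ratios are for replicate 2 over replicate 1.

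**Figure D5:**
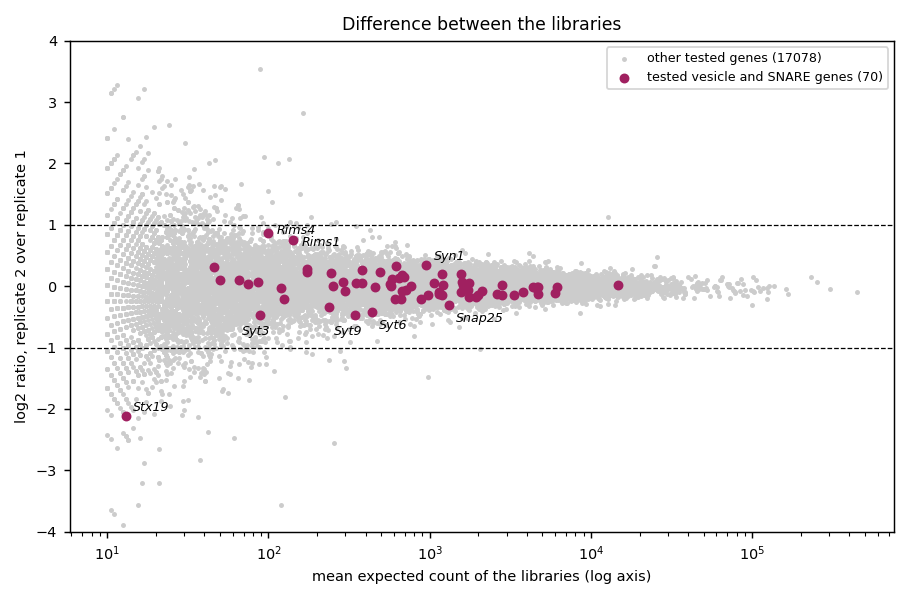
Log2 ratio of replicate 2 over replicate 1 against the mean expected count (log axis) for 70 genes of the set and 17078 other genes tested, with dashed lines at 2-fold; 34 genes beyond ±4 are not shown. Only Stx19 of the set lies outside the dashed lines, and Rims1 and Rims4 come nearest among the rest.

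Other genes of the pathway that the naming rule does not take were grouped into 4 lists. All 15 other SNAREs and SNAP adaptors were detected, with a median of 26.7 TPM, led by Napa (alpha-SNAP, the adaptor of Nsf) with 119 TPM in each library, Sec22b with 94.0 and 91.9 TPM and Vti1b with 81.9 and 78.9 TPM. All 18 vesicle endocytosis genes were detected, and their median was 37.1 TPM. In front stood the clathrin adaptor subunits Ap2m1 (482 and 459 TPM) and Ap2s1 (212 and 232 TPM) and the clathrin light chain Clta (180.2 and 174 TPM). Clathrin and its adaptors serve endocytosis in every cell. Of 16 other vesicle membrane genes 12 were detected, with a median of 10.4 TPM, led by Dnajc5 (70.9 and 77.7 TPM), Sypl (39.9 and 34.5 TPM) and Atp6v0a1 (32.1 and 35.2 TPM). The 4 under 1 TPM in both libraries were transmitter transporters, Slc17a8, Slc18a1, Slc17a7 and Slc18a3. Other transmitter transporters of this list were detected. Slc17a6 had 27.9 and 24.7 TPM, Slc18a2 14.4 and 12.1 TPM and Slc32a1 1.47 and 1.74 TPM. Of 19 other priming and release genes 12 were detected, with a median of 1.80 TPM, led by Ppfia1 (24.4 and 28.5 TPM), Erc1 (18.4 and 16.8 TPM) and Ppfia3 (6.98 and 6.66 TPM). Between the libraries 0 of 15, 0 of 18, 1 of 16 and 2 of 19 genes of these 4 lists passed the test with its 2-fold minimum. Over all genes tested 2.94% passed, and the genes of these lists that passed were not detected by the rule above. Membrane traffic and endocytosis lists had higher medians than the list of release genes, on the mean TPM of the 2 libraries.

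Some genes of the set lie close to each other or to other genes. Vamp5 and Vamp8 are neighbours on the reverse strand of chromosome 6, with 4754 bases between them, and had 3.80 and 22.8 TPM on average. In all, 21 genes share exon bases with another annotated gene, 19 of them with one on the opposite strand, and 6 share at least 10% of their exon bases: Snap47, Syt4, Stx18, Syp, Syn3 and Syt12. No source used here says whether the counting used strand, so reads from such overlaps cannot be told apart and these levels are uncertain to that extent.

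The transcription factor REST binds RE1 elements and represses neuronal genes outside neurons, and Rest itself had 16.5 and 14.1 TPM here. The RefSeq promoters (GRCm38.p6, 250 bases before to 50 after the start) matched 59 of the 74 genes. They were searched on both strands for an RE1-like motif, written as TTCAGCACC, then any 2 bases, then GGACAGCGC, of which 18 letters were compared. A gene with more than 1 promoter was scored by its best match. With up to 4 letters different, 2 of 59 genes (3.39%) had a match, Syn1 and Syt6, against 0.562% of 27025 genes with a RefSeq promoter. The 27025 were not limited to protein-coding genes. The limit of 4 was chosen after the matches were seen. With up to 2 different it was 1 (Syn1), against 0.0444%, and with up to 5 it was 6 (10.2%), against 4.06%. The stretches around the matches of Syn1 and Syt6 are shown, as the only ones at that limit, with matching letters in capitals. The Syn1 stretch, on the reverse strand of the X chromosome, begins its match 232 bases before the start and matches 16 letters. The Syt6 match lies 243 bases before the start, in the opposite orientation, with 14 letters.
Syn1, GRCm38.p6 chrX:20921111-20921168: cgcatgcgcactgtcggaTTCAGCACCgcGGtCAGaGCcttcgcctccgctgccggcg
Syt6, GRCm38.p6 chr3:103575876-103575922: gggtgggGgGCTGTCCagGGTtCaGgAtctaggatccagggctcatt
A match of letters is a description of the promoter, and binding was not measured here. Syn1 had a mean of 10.2 TPM and Syt6 of 3.73 TPM, and genes without a match in this window lay both above and below them.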

How the data were processed

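Gene and transcript tables hold, per the file headers, the authors' expected count (an estimated number of reads), TPM, FPKM and a posterior mean TPM. Bounds of a TPM interval, also deposited, were read as a signal. A standard deviation of the count, deposited as well and classed as a score, was not used. Transcript tables add, as deposited, the percent of its gene that a transcript holds. The submitters' processing notes name assembly mm10 and annotation M4, while no source used here gives the quantifier. TPM counts spike-ins, 15.2% and 14.8% of it, so every gene is lowered alike. Symbols, transcript types and coordinates came from GENCODE M21 on mm10 (42462 of 43346 genes matched). Vamp7 and Vamp9 fit the naming rule but were not analysed here. The tables' 96 spike-in rows and 26249 rows with numeric identifiers or phiX (4.44 and 13.25 counts) were left out of totals and tests, and 38884247 and 45975100 counts fell on genes.

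Pairs were called different where their deposited TPM intervals lay apart the same way in each library, with folds on TPM + 0.1. Such intervals go with the posterior mean, and the TPM printed lay outside its interval for 2 detected genes of the set, Stxbp2 and Stxbp5. The libraries were compared on expected counts rounded to whole numbers, where the counts of a gene summed to 20 or more, with TMM factors from edgeR 4.0.16 in R 4.3.3, an exact binomial test per gene and Benjamini-Hochberg adjustment (threshold 0.05), with a prior count of 1 in log2 ratios. The common coefficient of variation is edgeR's. Only the binomial test was tried on simulated counts, with planted changes and no spread between libraries beyond counting noise. The pairs, families, transcript shares and promoter search were not tried in that way. Alternatives used scaling by totals, by spike-ins or by size factors from DESeq2 1.42.0, other filters and units, and each library alone. Other software was matplotlib 3.10.9, pandas 2.3.3, scipy 1.17.1 and numpy 2.4.6 under Python 3.11.15. Genes of the set and the other lists, pairs and markers were chosen with earlier results of these data known. Any gene of the set could be named, and some are not reported here by name, though counts over the set include them. Of other lists the 3 highest were named, with those under 1 TPM where at most 5. The detected transmitter transporters were named as well, after their values were seen. Transcripts with at least 20% of a gene at 10 TPM or more in both libraries could be named, as could all of Snap25, and only some of them are. Transcripts of Unc13a, Syt6, Syt16 and Rims1, which lie under 10 TPM, were singled out after their values were seen.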

Additional observations from a re-analysis of the deposited data

How the results depend on the processing

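Of 70 genes of the set compared between the libraries, 1 passed the binomial test with its 2-fold minimum, and DESeq2 size factors, total or spike-in scaling and no count filter gave 1 as well. A summed count of at least 50 gave 0, with 29 of the 69 tested at an unadjusted p under 0.05 by the binomial test. No share over all genes is given for that p under this filter. With edgeR's exact test and an assumed coefficient of variation of 0.1 it was 0 as well. There 4 of 70 were at an unadjusted p under 0.05, against 6.46% of all genes tested. Without a fold minimum it was 25. Over all genes the call count of 505 became 228, 165 and 6090 under these settings, in the same order. With the limit of detection at 0.5 or 2 TPM, 66 or 53 genes of the set were detected, at an FPKM of 1 it was 59, and with 1 library left out 64 to 65. Shares of all protein-coding genes under these alternatives are not given. Pairs called different numbered 24 to 29 over the alternatives and 28 to 29 with 1 library left out, where Bsn and Pclo separated without replicate 1. Families with a leader above 50% numbered 7 by expected counts and 8 with either library alone. The 61 genes led by a coding transcript remained 61 in number with posterior mean TPM and with either library alone. With TPM + 1 in place of TPM + 0.1, the 29 pairs kept their direction and the folds of 5 became smaller by over 1.5 times: Vamp2 over Vamp1 (27.6), Unc13a over Unc13c (4.65), Sv2a over Sv2c (4.76), Syt1 over Syt2 (7.01) and Rims2 over Rims1 (3.65). By expected counts Rab3c led its family in place of Rab3a, and pairs were not compared on counts. Leaving a library out of the comparison between libraries was not possible, and the pair of Vamp7 and Vamp4 was not run. No paired analysis was possible because the libraries form 1 group. How depth limits genes at different levels was not tested.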
